A study of Homo sapiens with 36 samples.

Results

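RNA-seq of A2780 cells, a human ovarian carcinoma cell line, was examined for the comparison of cis SSP cells with the sensitive parental cells, both in complete medium. The question was which features of the parental cells returned in cis SSP cells and which did not. The comparison used 6 of the 36 libraries of the series, which has 12 groups of 3 libraries each, and the members were taken by their labels: libraries 1 to 3 for the parental cells (wt) and libraries 25 to 27 for cis SSP. The parental wt cells are platinum-sensitive. The cis SSP cells grew out of the cisplatin-resistant derivative of A2780 (cis) while it was kept without serine and glycine, and were described as having regained the serine synthesis pathway. All 6 libraries came from cells given serine and glycine and no carboplatin. Libraries 13 to 15, of cis cells in the same medium, were set beside them to show where cis SSP cells stand between their direct parent and the sensitive cells. Each group is 1 cell population and its 3 libraries are called technical replicates in the study's legends, so p-values measure only the spread between these libraries and not between independent cultures.

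Serine is made from a glycolytic intermediate by PHGDH, PSAT1 and PSPH, in that order, and feeds glycine, folate-bound one-carbon units and glutathione. PHGDH uses NAD+ as its electron acceptor. ATF4 is a transcription factor that rises in translation when amino acids are short and switches on amino acid enzymes and transporters, the serine enzymes among them. Platinum drugs crosslink DNA, and resistant cells are commonly studied for drug transport, thiol buffering, DNA repair, p53 and changes of cell identity, which is why those gene groups were listed here.

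The authors deposited raw counts of reads on exons, and total counts on genes ran from 14455766 to 18788646 in the 6 libraries. Levels are given as CPM, a gene's count scaled to a common library size, in the order of the library numbers. Library 25 stood apart from libraries 26 and 27. Genes were split into 5 classes of equal number by transcript length, taken here as all bases covered by the annotated exons of a gene. The median log2 difference of library 25 from libraries 26 and 27 was 0.53 in the class of shortest transcripts and -0.59 in the longest. The medians of libraries 26 and 27, each compared with the other alone, stayed between -0.02 and 0.02. The common dispersion of the comparison was 0.0324 with library 25 and 0.000797 without it. Counts of called genes and log2 fold changes are therefore given with and without this library where the text turns on them, while fold bounds use all libraries. The labels list the same index sequences for libraries 1 to 3 as for libraries 25 to 27 and name no batch. A technical difference between the groups, if there was one, cannot be told apart from cell population. The plot of library 25 by transcript length shows the shift.

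**Figure D1:**
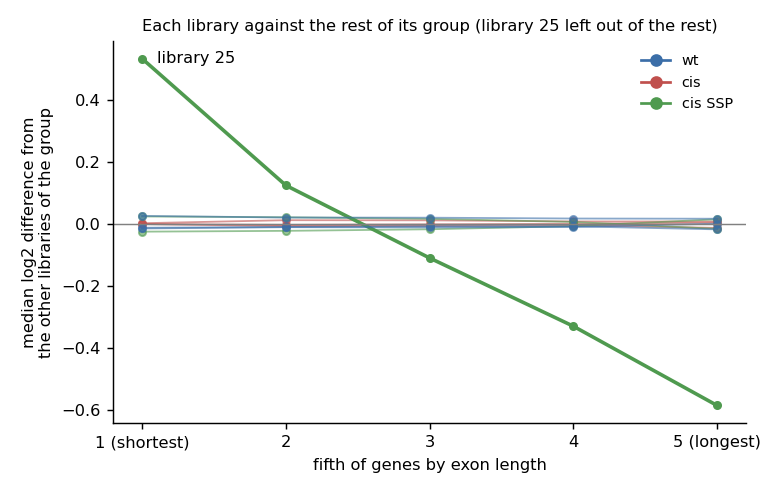
Median log2 difference of each library from the other libraries of its group, with library 25 left out of these (vertical axis). The horizontal axis is the class of transcript length, taken as all bases covered by the annotated exons of a gene. Library 25 falls from 0.53 in the shortest class to -0.59 in the longest.

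The identity of the cells was checked against marker genes. PAX2, a transcription factor of Müllerian epithelium, was at 168, 167 and 165 CPM in the wt libraries, at 0 in all cis libraries and at 0.139, 0 and 0 CPM in the cis SSP libraries. It was called lower, and it was the 1 gene of the 8 ovarian lineage markers with enough counts to be tested, so the ovarian label rests on the source of the line and not on these markers. Vimentin (VIM), a mesenchymal filament protein, was at 3093, 3141 and 3047 CPM in wt and at 3057, 2021 and 2053 CPM in cis SSP cells. Of the markers of other cell types, COL1A1 and PDGFRB, which fibroblasts use, were measured and both fell, COL1A1 from 162, 166 and 163 CPM in wt to 18.7, 14.7 and 19.8 CPM in cis SSP cells. The leukocyte, endothelial and hepatocyte markers PTPRC, CD68, CD3E, VWF and ALB were at most 0.132 CPM in any library of the 3 groups. In bulk samples, fewer cells that express a gene and less RNA per cell cannot be told apart.

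Of 14569 genes tested, 6179 were called between cis SSP and wt cells (edgeR's quasi-likelihood test, Benjamini-Hochberg adjusted p under 0.05), which is 42.4%. They comprised 3018 higher genes (20.7%) and 3161 lower genes (21.7%). At a change of at least 2-fold, 1520 of the called genes were higher and 1914 lower. Without library 25, 11089 of 14997 genes were called (73.9%), with 5466 higher (36.4%) and 5623 lower (37.5%). All 6179 genes were tested in that fit too, and 6158 of them were called with the same sign, none with the other sign. Between cis and wt cells 78.5% of 14431 genes were called, and between cis SSP and cis cells 29.1% of 13714 genes with library 25 and 65.4% of 14154 genes without it. These shares follow the spread between libraries, so sizes are set side by side as well. The median absolute log2 fold change was 0.47 for cis SSP against wt (0.41 without library 25), 0.44 for cis against wt and 0.37 for cis SSP against cis (0.32 without library 25). By this median, cis SSP cells were at a similar distance from the sensitive cells as the resistant cells were. The share of each gene list below that was called is to be read beside 42.4% with and 73.9% without library 25.

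To follow the return of parental expression, genes called between cis and wt cells with a change of at least 2-fold and a mean of at least 50 counts in the higher group were taken as lost (lower in cis, 1391 genes) or gained (higher in cis, 1046 genes). The place of cis SSP cells was expressed as a position on the log2 CPM scale, where 0 is the mean of cis and 1 the mean of wt cells. The same wt and cis libraries chose these genes and set the scale, so positions are a description and were given no test. Of the lost genes, 201 stood at a position of 0.75 or more, at or past the parental level, and 871 under 0.25, at or past the level of cis cells. Without library 25 these counts were 188 and 833. Of the gained genes, 147 stood at 0.75 or more and 587 under 0.25, or 127 and 610 without library 25. The median position was 0.09 (0.11 without library 25) for lost and 0.19 (0.18) for gained genes. Most of the genes so chosen, with a change of at least 2-fold, therefore stayed near or past the level of the resistant cells in cis SSP, as the histograms of positions show. Genes with smaller changes were given no position.

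**Figure D2:**
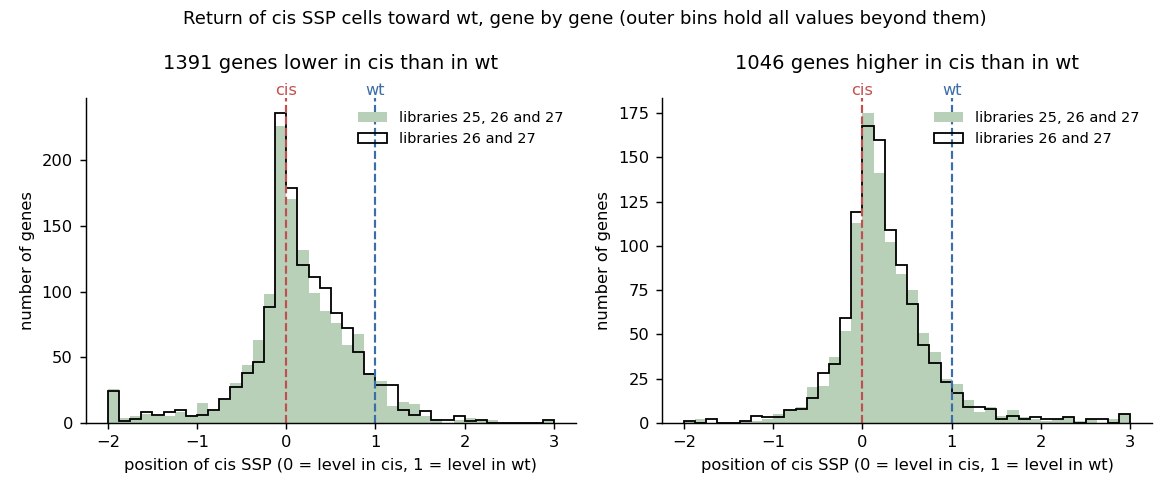
Number of genes (vertical axis) by position of cis SSP cells between cis (0) and wt (1) on the log2 CPM scale (horizontal axis), for genes lost or gained in cis cells, with and without library 25. Both sets peak near 0, with a median of 0.09 for lost and 0.19 for gained genes with library 25.

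In the test against wt, 1132 of the 1391 lost genes remained called lower in cis SSP cells and 34 were called higher than in wt. Of the 1021 gained genes that were tested, 825 were called higher in cis SSP than in wt cells and 37 were called lower. Without library 25 these numbers were 1251 and 60 for the lost genes and, of 1029, 930 and 49 for the gained ones. The wt libraries enter both comparisons. As a description, the share of returned genes was smaller where the loss was deep. Of 672 lost genes with a difference of 1 to 2 on the log2 scale between cis and wt cells, 23.5% stood at a position of 0.75 or more. The share was 9.01% of 322 genes with a difference of 2 to 4 and 3.53% of 397 genes with a larger one. The same order was seen without library 25 (21.1%, 9.32% and 4.03%) and among gained genes (18.5%, 9.70% and 7.66%, or 15.6%, 9.33% and 6.22% without library 25). Under 0.25 stood 49.9%, 62.7% and 84.1% of the lost genes in these classes (45.8%, 61.5% and 82.4% without library 25). Among gained genes it was 48.0%, 58.2% and 75.6% (48.0%, 63.4% and 79.9%). Genes that stayed with cis cells were thus no majority in the class of smallest difference. A smaller difference also leaves a position more exposed to the spread between libraries, and the part of that spread was not tested.

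The remaining media of the series gave libraries of the same cells that were not used above. Of the 168 lost genes at 0.75 or more both with and without library 25, 114 kept a 2-fold difference between cis and wt cells under carboplatin, and 69.3% of these were again at 0.75 or more. The shares were 77.6% of 98 genes without serine and glycine and 61.0% of 77 genes without them and with carboplatin. Of the 810 lost genes under 0.25, 95.7%, 91.0% and 94.1% of those with a 2-fold difference were under 0.25 again in the same 3 media. Library 32, of cis SSP cells without serine and glycine, had the same length shift as library 25, with a difference between the shortest and the longest class of 1.12 in each. Without library 32 the shares in that medium were 69.4% at 0.75 or more and 90.6% under 0.25. The 6158 genes called with and without library 25 were also followed. In carboplatin 82.7% had the same sign with no overlap between the wt and cis SSP libraries (80.7% of all tested genes did not overlap, in either direction). The share was 91.1% without serine and glycine (64.8% of all tested genes), or 93.3% without library 32 (81.3%), and 77.1% without them and with carboplatin (73.6%).

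PHGDH, the first enzyme of serine synthesis, was partly back. It lies at chr1:120191034-120286841 on GRCh37. Its level was 465, 493 and 468 CPM in wt, 151, 150 and 157 CPM in cis and 384, 271 and 283 CPM in cis SSP cells. All cis SSP libraries lay above those of cis and below those of wt cells, and library 25 was the highest of them. The log2 fold change of cis SSP against wt was -0.62 ± 0.16 (SE, n = 3 against 3; edgeR's quasi-likelihood test, adjusted p = 0.0238) and -0.80 ± 0.03 without library 25 (adjusted p = 8.64e-46), against -1.66 for cis against wt cells. Against cis cells PHGDH rose by 1.06 ± 0.16 in cis SSP cells (SE, adjusted p = 0.00462, edgeR), or by 0.88 without library 25. The position was 0.62, or 0.53 without library 25. The call was lost when any other of the 6 libraries was left out and library 25 kept (adjusted p = 0.0674 to 0.0846 in edgeR), and when the trend over transcript length was removed (-0.43, adjusted p = 0.176). In the other media the mean log2 CPM of cis SSP cells exceeded that of wt cells, by 0.0955 in carboplatin, by 0.20 without serine and glycine (0.0229 without library 32), where the libraries of the groups overlapped either way, and by 1.01 with both. The wt mean was 7.46, 9.05 and 7.32 in these media and the cis SSP mean 7.55, 9.25 and 8.33, so both were lower with carboplatin.

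Of the 3 serine enzymes, 2 were called lower than in wt (66.7%) and 0 higher, with and without library 25 (0 higher also at an unadjusted p under 0.05 in edgeR, in DESeq2 and in voom). PSAT1, the aminotransferase of the second step, was at 911, 924 and 893 CPM in wt, at 727, 730 and 741 CPM in cis and at 626, 657 and 659 CPM in cis SSP cells. Each cis SSP library was below each cis library, with a log2 fold change against wt of -0.51 ± 0.10 (SE, adjusted p = 0.00605, edgeR, log2 fold change -0.49 without library 25), while the difference from cis cells was not called with library 25 (-0.16, adjusted p = 0.242) and was called without it (-0.13, adjusted p = 0.000113). PSPH, the phosphatase of the last step, gave 0.02 against wt (adjusted p = 0.919) and -0.08 without library 25 (adjusted p = 0.0666). It was at 73.6, 72.7 and 72.0 CPM in wt and at 83.0, 69.6 and 70.3 CPM in cis SSP cells, so library 25 was above and libraries 26 and 27 were below the wt libraries. Outside complete medium both enzymes were above wt in cis SSP cells, with no overlap. The mean log2 CPM of PSAT1 was higher by 0.34 in carboplatin, 0.54 without serine and glycine and 1.19 with both. That of PSPH was higher by 0.71, 0.78 and 1.14. Without library 32 the values without serine and glycine were 0.54 and 0.70. The cis cells were at 0.63, -0.51 and 0.63 against wt for PSAT1 and at 0.84, 0.51 and 1.08 for PSPH. A level above wt was thus particular to cis SSP cells only for PSAT1 without serine and glycine. The wt mean in these media was 8.81, 10.06 and 8.70 for PSAT1 and 5.53, 6.28 and 5.48 for PSPH, so it was lower with carboplatin.

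Of 11 amino acid transporters tested, 1 rose and 3 fell in cis SSP against wt cells (36.4% called), and 4 rose and 5 fell without library 25 (81.8%). SLC1A4, a transporter of serine and other neutral amino acids, was at 23.8, 25.6 and 26.4 CPM in wt, 94.9, 93.1 and 92.9 CPM in cis and 45.4, 58.9 and 60.4 CPM in cis SSP cells. It rose by 1.10 ± 0.13 on the log2 scale (SE, adjusted p = 0.000851, edgeR, log2 fold change 1.21 without library 25) and was below the cis level (-0.75, adjusted p = 0.00752, log2 fold change -0.63 without library 25), at a position of 0.41 (0.34 without library 25). SLC7A11, the cystine importer that supplies glutathione synthesis, had returned from 72.2, 72.1 and 69.0 CPM in cis to 13.2, 29.1 and 27.4 CPM in cis SSP cells, beside 27.6, 27.2 and 28 CPM in wt. Libraries 26 and 27 were at the wt level and library 25 was below it, with a log2 fold change of -0.27 (adjusted p = 0.478) or, without library 25, of 0.01 ± 0.06 (SE, adjusted p = 0.944). In the other media the mean log2 CPM of SLC7A11 in cis SSP cells was above wt, by 1.13 in carboplatin and by 2.34 without serine and glycine and with carboplatin, with no overlap. It was above by 0.68 with overlap without serine and glycine, or by 1.04 with no overlap without library 32. The cis cells were above wt by 2.60, 4.04 and 1.44 in these media, so the mean of cis SSP cells lay between those of wt and cis cells in each. The wt mean was 3.69, 3.45 and 5.85 in the same order and the cis SSP mean 4.82, 5.79 and 6.54. SLC7A1, an importer of cationic amino acids, fell by 1.54 on the log2 scale (adjusted p = 0.00923, log2 fold change -1.245 without library 25) and SLC7A5, an importer of large neutral amino acids, fell by 0.57 (adjusted p = 0.0088, log2 fold change -0.49 without library 25). SLC7A10 was low in all groups, at 3.5, 3.73 and 3.27 CPM in wt and at 0.902, 0.181 and 0.386 CPM in cis SSP cells, and overlaps LRP3 on the other strand. For SLC38A1, SLC38A2, SLC1A5, SLC3A2 and SLC6A9 the call depended on library 25: none passed with it and each passed without it, with log2 fold changes of 0.35, 0.26, -0.15, -0.48 and 0.38. SFXN1, the mitochondrial serine carrier, was at -0.04 (adjusted p = 0.716) and -0.03 without library 25 (adjusted p = 0.454).

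Of 18 one-carbon genes tested, 7 rose and 2 fell (50% called), and 10 and 6 without library 25 (88.9%). GLDC, of the glycine cleavage system, was at 23.3, 25 and 26.6 CPM in wt, 110, 108 and 105 CPM in cis and 43.7, 46.3 and 47.9 CPM in cis SSP cells, with no overlap between groups. It rose by 0.86 ± 0.10 on the log2 scale against wt (SE, adjusted p = 0.000609, edgeR, log2 fold change 0.89 without library 25) and stood at a position of 0.58 (0.57 without library 25). FPGS, which retains folates in cells, rose by 0.83, and the folate carrier SLC19A1 rose by 0.77 (adjusted p = 0.0108 and 0.00202, log2 fold change 0.61 and 0.68 without library 25). The mitochondrial enzymes SHMT2 and MTHFD2 had log2 fold changes of 0.02 and -0.09 (adjusted p = 0.945 and 0.444), and without library 25 both were called lower, at -0.14 and -0.0974 (adjusted p = 1.42e-06 and 0.000577).

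The genes of the ATF4 list were mostly lower in cis SSP than in wt cells, with 13 of 20 tested genes called lower and 1 higher (70.0% called), and 18 and 1 without library 25 (95%). Their median log2 fold change was -0.58 (-0.73 without library 25), beside 0.02 over all genes tested. ATF4 mRNA itself was at 522, 526 and 531 CPM in wt, 420, 430 and 430 CPM in cis and 393, 248 and 271 CPM in cis SSP cells. Every cis SSP library was below every cis library, and the log2 fold change against wt was -0.80 ± 0.19 (SE, adjusted p = 0.0168, edgeR, log2 fold change -1.05 without library 25). ATF4 acts through protein made under amino acid shortage, which counts of mRNA do not measure. ATF3, a stress-induced partner of ATF4, was at 20.5, 21.6 and 22.8 CPM in wt, 8.71, 9.18 and 8.86 CPM in cis and 1.67, 2.18 and 2.48 CPM in cis SSP cells (log2 fold change -3.36 ± 0.15, SE; adjusted p = 1.26e-05, log2 fold change -3.24 without library 25). ASNS, asparagine synthetase, was at 350, 350 and 340 CPM in wt, 214, 214 and 223 CPM in cis and 188, 142 and 151 CPM in cis SSP cells (-1.13 ± 0.14; adjusted p = 0.000926, log2 fold change -1.27 without library 25). All 3 were lower in every cis SSP library than in every cis library, and against cis cells ATF3 was called (-2.05, adjusted p = 0.00041, log2 fold change -1.91 without library 25). ATF4 and ASNS were not called against cis cells with library 25 (-0.47, adjusted p = 0.112, and -0.42, adjusted p = 0.06) and were called without it (-0.70 and -0.54). STC2 fell by 1.82 and GDF15 fell by 1.48 on the log2 scale (adjusted p = 1.47e-05 and 0.00571, log2 fold change -1.79 and -1.86 without library 25). Against this, ATF5 rose from 38.3, 37.8 and 40.8 CPM in wt to 141, 112 and 115 CPM in cis SSP cells (1.64 ± 0.13; adjusted p = 0.000128, log2 fold change 1.51 without library 25), and it overlaps NUP62 on the other strand. TRIB3 and CTH, which cis cells had raised by 1.33 and 2.34 on the log2 scale, were back at positions of 1.17 and 1.19 (1.23 and 1.14 without library 25). Of these genes, ATF3, STC2, GDF15 and ATF5 follow the naming rule, and ASNS, TRIB3 and CTH were picked after their values were seen.

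To see how many of these genes carry a known element, promoters, here the 250 bases before the RefSeq start (GRCh38.p14), were searched on both strands. The search was for TGATGNAA, the letters of the C/EBP-ATF response element (CARE). These letters were present in 4 of the 21 matched promoters of ATF4 targets and serine enzymes and in 3.89% of all 27305 promoters. A match is a description and not a binding site. The 30 bases around each are shown with the match in capitals, in the direction of the gene, at chr7:97872458-97872487 on the minus strand for ASNS and on the plus strand at chr1:212565205-212565234 for ATF3, chr15:40953251-40953280 for CHAC1 and chr19:33374060-33374089 for CEBPG. In CHAC1 the match reads on the strand opposite to the gene.
ASNS: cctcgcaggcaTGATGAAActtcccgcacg
ATF3: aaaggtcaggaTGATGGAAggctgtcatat
CHAC1: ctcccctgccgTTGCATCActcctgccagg
CEBPG: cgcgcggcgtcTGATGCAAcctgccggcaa
CHAC1, a glutathione-degrading enzyme, fell by 1.07 on the log2 scale and CEBPG, a transcription factor that pairs with ATF4, fell by 0.77 (adjusted p = 0.00285 and 0.000686, edgeR, log2 fold change -1.28 and -0.81 without library 25). All 4 genes shown were lower in cis SSP than in wt cells, as were most of the list, with 13 of 20 tested genes called lower (18 without library 25).

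Genes of sterol and fatty acid synthesis were lower as a group, with 15 of 17 tested genes called lower and 0 higher (88.2% called), 16 and 0 without library 25 (94.1%), and a median log2 fold change of -1.06 (-0.99). No member was higher at an unadjusted p under 0.05 (0 genes), and DESeq2 and voom with library quality weights called 0 higher as well. HMGCS1, which makes the HMG-CoA of the mevalonate pathway, was at 301, 299 and 293 CPM in wt, 136, 129 and 135 CPM in cis and 60.5, 83.3 and 81.9 CPM in cis SSP cells. The 3 groups did not overlap and the order was wt, cis, cis SSP, with -2.0 ± 0.14 on the log2 scale against wt (SE, adjusted p = 8.6e-05, edgeR, log2 fold change -1.87 without library 25). IDI1, which isomerizes isopentenyl diphosphate, fell by 1.47 (adjusted p = 0.00059, log2 fold change -1.66 without library 25). SQLE, squalene epoxidase, had been higher in cis than in wt cells and was at 89.8, 85.6 and 88.0 CPM in cis SSP cells beside 165, 164 and 163 CPM in wt. It was chosen after its values were seen. SREBF1, a transcription factor of lipid synthesis, was not called, at 0.08 (adjusted p = 0.505) and 0.0621 without library 25 (adjusted p = 0.0505).

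Of 10 desaturases and elongases tested, 3 rose and 5 fell (80.0% called), and of 11 without library 25 3 rose and 7 fell (90.9%). FADS2, the desaturase of the first step of polyunsaturated fatty acid synthesis, was at 595, 622 and 599 CPM in wt, 22.5, 23.1 and 25.2 CPM in cis and 36.9, 40.5 and 43.9 CPM in cis SSP cells. It was far below wt in cis SSP cells (-3.92 ± 0.12 on the log2 scale, SE; adjusted p = 2.43e-06, edgeR, log2 fold change -3.87 without library 25), at a position of 0.17 (0.18). FADS1, its neighbour on the other strand, fell by 1.18 (adjusted p = 0.0031, log2 fold change -0.994 without library 25), and reads of overlapping genes cannot be assigned with certainty since the strand setting of the counting was not given in the sources used here.

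NAD genes moved in both directions, with 9 of 27 tested genes higher and 7 lower (59.3% called), and 13 and 11 without library 25 (88.9%). QPRT, of NAD synthesis from tryptophan, was at 92.2, 97.4 and 96.6 CPM in wt, 1.45, 2.01 and 1.68 CPM in cis and 2.29, 2.05 and 1.76 CPM in cis SSP cells. It had not returned, with a log2 fold change of -5.57 ± 0.14 against wt (SE, adjusted p = 1.43e-06, edgeR, log2 fold change -5.67 without library 25) and a position of 0.04 (0.03 without library 25). NAMPT, of the salvage route, fell by 1.04 (adjusted p = 0.000356, log2 fold change -0.97 without library 25). NMNAT2, a nicotinamide nucleotide adenylyltransferase, was at 3.89, 3.89 and 3.43 CPM in wt and 4.03, 3.53 and 4.21 CPM in cis but at 0.139, 0.0604 and 0.0551 CPM in cis SSP cells. SIRT1, an NAD-dependent deacetylase, was at 85.9, 81.6 and 83.9 CPM in wt, 411, 404 and 418 CPM in cis and 244, 394 and 386 CPM in cis SSP cells, and rose by 2.01 ± 0.20 on the log2 scale against wt (SE, adjusted p = 0.000338, log2 fold change 2.19 without library 25). PARP1, the main consumer of NAD+ at DNA breaks, was at 615, 630 and 615 CPM in wt and 594, 660 and 656 CPM in cis SSP cells, and was not called (0.02 ± 0.10, SE; adjusted p = 0.873), while it was called without library 25 at 0.06 (adjusted p = 0.0136). Outside complete medium its mean log2 CPM in cis SSP cells was above wt with no overlap. The difference was 0.96 in carboplatin, 0.31 without serine and glycine (0.35 without library 32) and 1.11 with both. The cis cells were at 0.99, -0.35 and 0.32 against wt in these media. Of 18 dehydrogenases and shuttle genes tested, 4 rose and 3 fell (38.9% called), and 6 and 11 of 19 without library 25 (89.5%). GPD2, the mitochondrial glycerol 3-phosphate dehydrogenase, was at 130, 131 and 131 CPM in wt, 29.4, 27.7 and 30.8 CPM in cis and 0.764, 1.27 and 1.32 CPM in cis SSP cells, with no overlap between groups (-6.85 ± 0.19 against wt and -4.66 ± 0.19 against cis cells, SE; adjusted p = 2.23e-06 and 4.53e-05, log2 fold change -6.67 and -4.47 without library 25).

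**Figure D3:**
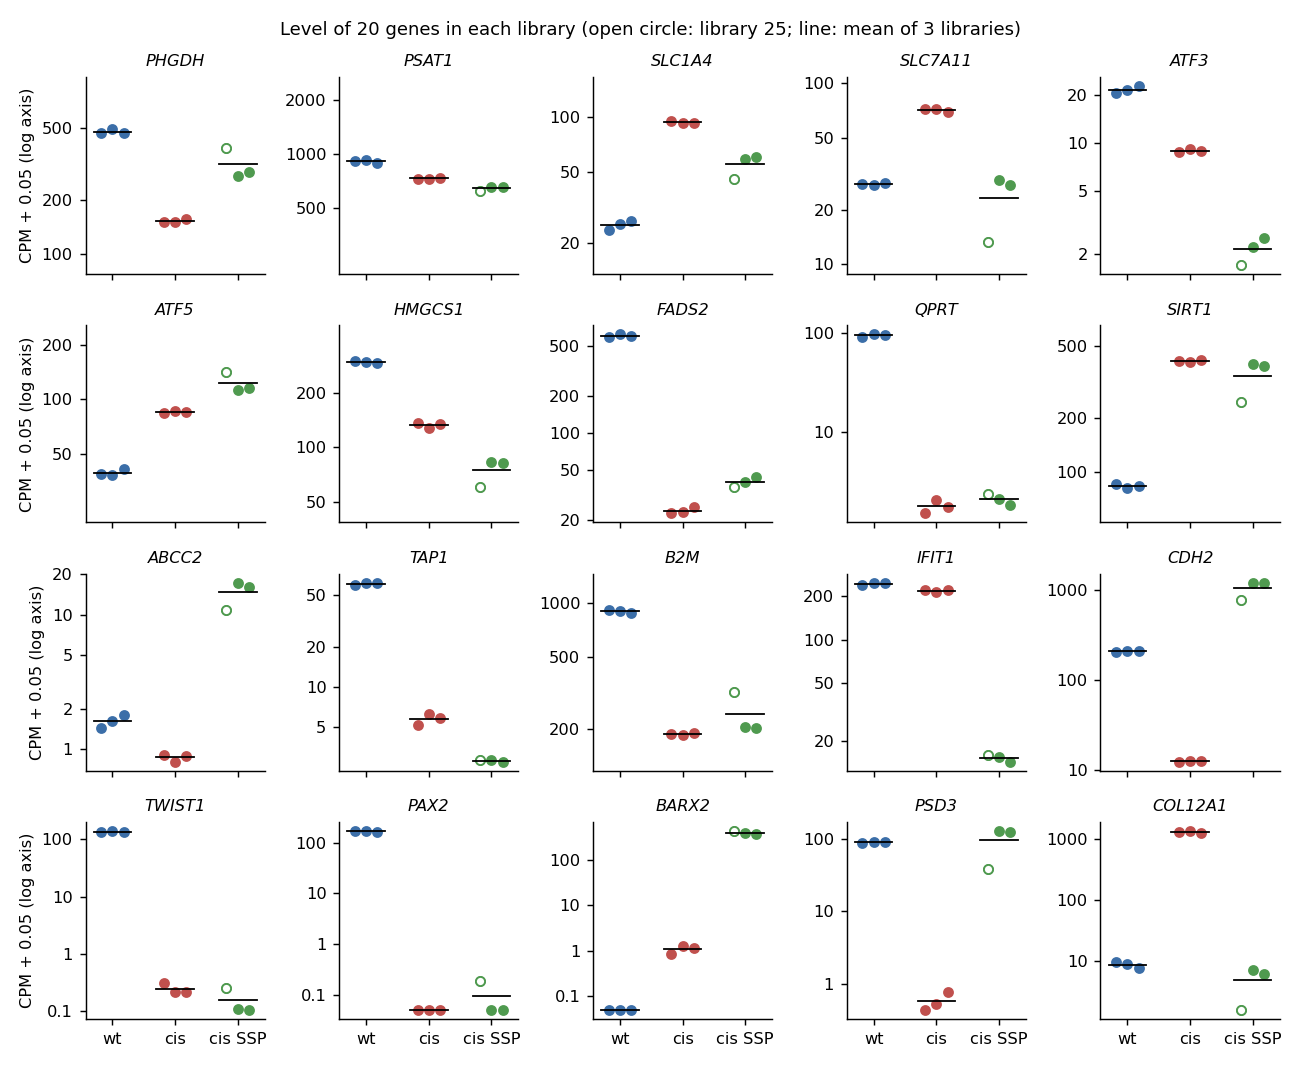
CPM plus 0.05 on a log axis (vertical) of 20 named genes in the libraries of wt, cis and cis SSP cells (horizontal), 1 point per library, with library 25 as an open circle. PHGDH and SLC1A4 lie between the cis and wt levels in cis SSP cells, SLC7A11 and COL12A1 near wt, FADS2, QPRT and SIRT1 near cis, and CDH2 and BARX2 above both.

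Interferon and antigen presentation genes had the largest median shift of the lists with at least 3 tested genes, with 16 of 21 tested genes called lower and 0 higher (76.2% called) and a median log2 fold change of -2.87. At an unadjusted p under 0.05, 1 was higher, and DESeq2 and voom with library quality weights each called 1 higher. Without library 25, 17 were lower, 1 was higher (85.7% called) and the median was -2.96. Of 13 members that were lost in cis cells, 11 stood under a position of 0.25 with and without library 25. B2M, the light chain of MHC class I, was at 917, 905 and 877 CPM in wt, 189, 187 and 191 CPM in cis and 321, 205 and 204 CPM in cis SSP cells (-1.90 ± 0.21 on the log2 scale against wt, SE; adjusted p = 0.000609, edgeR, log2 fold change -2.16 without library 25). The peptide transporter subunit TAP1 fell by 4.47 (adjusted p = 1.2e-06, log2 fold change -4.49 without library 25), and PSMB9 of the immunoproteasome, which overlaps TAP1 on the other strand, was at 19.6, 19.4 and 19.5 CPM in wt and 0.139, 0.121 and 0.110 CPM in cis SSP cells. None of these 3 genes was back at the wt level in cis SSP cells.

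The IFIT genes were lower in cis SSP than in cis cells as well. IFIT1, an interferon-induced protein that binds viral RNA, was at 239, 247 and 247 CPM in wt, 220, 215 and 221 CPM in cis and 15.8, 15.5 and 14.3 CPM in cis SSP cells (-4.02 ± 0.11 against wt, SE; adjusted p = 1.81e-06, edgeR, log2 fold change -4.07 without library 25). Against cis cells it fell by 3.83 (adjusted p = 1.38e-05, log2 fold change -3.86 without library 25). IFIT2 was at 47.8, 48.8 and 46.3 CPM in wt, 44.1, 44.1 and 46.6 CPM in cis and 4.93, 5.20 and 5.57 CPM in cis SSP cells (-3.20; adjusted p = 2.79e-06, log2 fold change -3.17 without library 25). IFIT3 fell by 4.53 against wt (adjusted p = 1.35e-05, log2 fold change -4.37 without library 25) and by 2.02 against cis cells (adjusted p = 0.00147, log2 fold change -1.85 without library 25), which themselves were at -2.49 against wt. OAS3, a sensor of double-stranded RNA, was the 1 lost member that was back, at 28.3, 62.8 and 57.3 CPM in cis SSP cells beside 55.0, 56.1 and 54.1 CPM in wt (-0.17, adjusted p = 0.647, and 0.10 without library 25, adjusted p = 0.052). ISG15 and IFI6 were not called with library 25, at 0.17 and 0.73, and without it ISG15 was called lower and IFI6 higher, at -0.36 and 0.33 (adjusted p = 4.73e-07 and 8.77e-05). In this list PSMB9 follows the naming rule, and the other genes described were chosen after their values were seen.

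The same promoters were searched for GAAA followed after any 2 bases by GAAA, on both strands, the core of the interferon-stimulated response element (ISRE), which was present in 13 of the 20 matched promoters of the list and in 3.71% of all promoters. Sites of 30 bases are shown for genes that fell, for ISG15, which was called lower only without library 25, and for IFI6, which was lower in neither fit, with matches in capitals and in the direction of the gene. They lie at chr10:89392510-89392539 (IFIT1), chr10:89327865-89327894 (IFIT3), chr15:44711369-44711398 (B2M) and chr1:1013380-1013409 (ISG15) on the plus strand, and at chr6:32853813-32853842 (TAP1) and chr1:27672266-27672295 (IFI6) on the minus strand, in GRCh38.p14. The matches of IFIT1, IFIT3 and TAP1 read on the strand opposite to the gene.
IFIT1: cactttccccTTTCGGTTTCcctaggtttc
IFIT3: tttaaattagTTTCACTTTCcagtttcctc
B2M: ctaaGAAAAGGAAACTGAAAacgggaaagt
TAP1: ccgcTTTCGATTTCGCTTTCccctaaatgg
ISG15: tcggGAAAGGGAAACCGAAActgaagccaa
IFI6: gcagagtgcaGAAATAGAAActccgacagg
In B2M, TAP1 and ISG15 the capitals span 2 overlapping matches. The letters were thus present in genes that were lower in cis SSP cells and in IFI6, which was not. For the sterol list the letters searched were TCACNCCAC, a core of the sterol regulatory element, found in 1 of 12 matched promoters (SREBF2) and in 1.09% of all promoters.

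Among the genes linked with platinum response, 1 of 12 transport genes rose and 4 fell (41.7% called, beside 42.4% of all genes), and 4 and 5 without library 25 (75%, beside 73.9%), so the share was near that of all genes either way. ABCC2, an exporter of glutathione conjugates, was at 1.39, 1.56 and 1.74 CPM in wt, 0.858, 0.760 and 0.841 CPM in cis and 10.8, 17.2 and 16 CPM in cis SSP cells. It was higher in every cis SSP library than in both other groups, by 3.21 ± 0.22 on the log2 scale against wt (SE, adjusted p = 7.01e-05, edgeR, log2 fold change 3.37 without library 25). The copper transporters ATP7B and SLC31A1 fell by 1.57 and fell by 0.87 (adjusted p = 0.00636 and 0.0106, log2 fold change -1.28 and -0.69 without library 25). Of 18 glutathione and metallothionein genes, 7 rose and 2 fell (50% called), and 9 and 8 without library 25 (94.4%). The metal-binding MT2A was at 2.95, 3.17 and 2.95 CPM in wt and at 38.6, 14.9 and 16 CPM in cis SSP cells (2.92 ± 0.43, or 2.33 ± 0.12 without library 25, SE), with library 25 the highest. MGST1, a microsomal glutathione transferase, was at 25, 26 and 26 CPM in wt, 12.2, 14.1 and 13.5 CPM in cis and 2.5, 2.12 and 1.65 CPM in cis SSP cells. Of 36 DNA repair genes tested, 5 rose and 2 fell (19.4% called, beside 42.4% of all genes), and 16 and 10 without library 25 (72.2%, beside 73.9%). One of the 2 that fell, the mismatch repair gene MSH6, was at 278, 287 and 280 CPM in wt, 134, 138 and 140 CPM in cis and 134, 150 and 150 CPM in cis SSP cells (-0.98 ± 0.10, SE; adjusted p = 0.000318, log2 fold change -0.93 without library 25). It does not stand for the list, since more of the called genes rose, and those are not described here.

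Of 20 p53 targets tested, 3 rose and 5 fell (40.0% called, near the 42.4% of all genes), and 7 and 12 without library 25 (95%). PLK2, a stress-responsive kinase, was at 13.5, 13.3 and 13.5 CPM in wt, 97.2, 97.4 and 97.5 CPM in cis and 102, 112 and 110 CPM in cis SSP cells, and TP53INP1 was at 33, 34.5 and 33 CPM in wt and at most 0.217 CPM in cis and cis SSP cells. Both kept the state of cis cells. Of 31 cell cycle genes tested, 6 rose and 4 fell (32.3% called), and 16 and 12 without library 25 (90.3%). CDKN2A, which encodes a cyclin-dependent kinase inhibitor, was at 5.34, 6.51 and 6.33 CPM in wt, 1.58, 2.39 and 1.63 CPM in cis and 37.6, 19.2 and 18.2 CPM in cis SSP cells, and thus lay past the wt level (2.03 ± 0.32, or 1.59 ± 0.10 without library 25, SE). CDKN2C, of the same inhibitor family, went the other way, from 27.8, 26.4 and 26.5 CPM in wt through 13.5, 12.7 and 13.2 CPM in cis to 2.22, 1.75 and 1.10 CPM in cis SSP cells.

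Of 12 epithelial and mesenchymal genes tested, 4 rose and 3 fell (58.3% called), and 5 and 6 of 14 without library 25 (78.6%). CDH2, N-cadherin, was at 205, 211 and 211 CPM in wt, 12.5, 12.7 and 12.8 CPM in cis and 768, 1199 and 1181 CPM in cis SSP cells. It had come back past the parental level, by 2.31 ± 0.19 on the log2 scale (SE, adjusted p = 0.000155, edgeR, log2 fold change 2.48 without library 25), and the mean log2 CPM of cis SSP exceeded that of wt cells by 2.505 in carboplatin, 2.36 without serine and glycine (2.54 without library 32) and 2.69 with both, with no overlap. TWIST1, a transcription factor of mesenchymal cells, did not return. It was at 133, 139 and 133 CPM in wt, 0.264, 0.163 and 0.168 CPM in cis and 0.208, 0.0604 and 0.0551 CPM in cis SSP cells, a ratio of wt to cis SSP of 1325 (exact 95% interval 567 to 4081, which covers counting error only). Its paralog TWIST2 had 0 counts in wt cells and 6.73, 3.93 and 3.36 CPM in cis SSP cells, at least 83.1-fold higher when 3 counts over the wt libraries are taken as the floor. KRT18, an epithelial keratin, was at 0.612, 0.501 and 0.739 CPM in wt, 17.2, 16 and 18.7 CPM in cis and 13.5, 7.31 and 10.3 CPM in cis SSP cells.

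**Figure D4:**
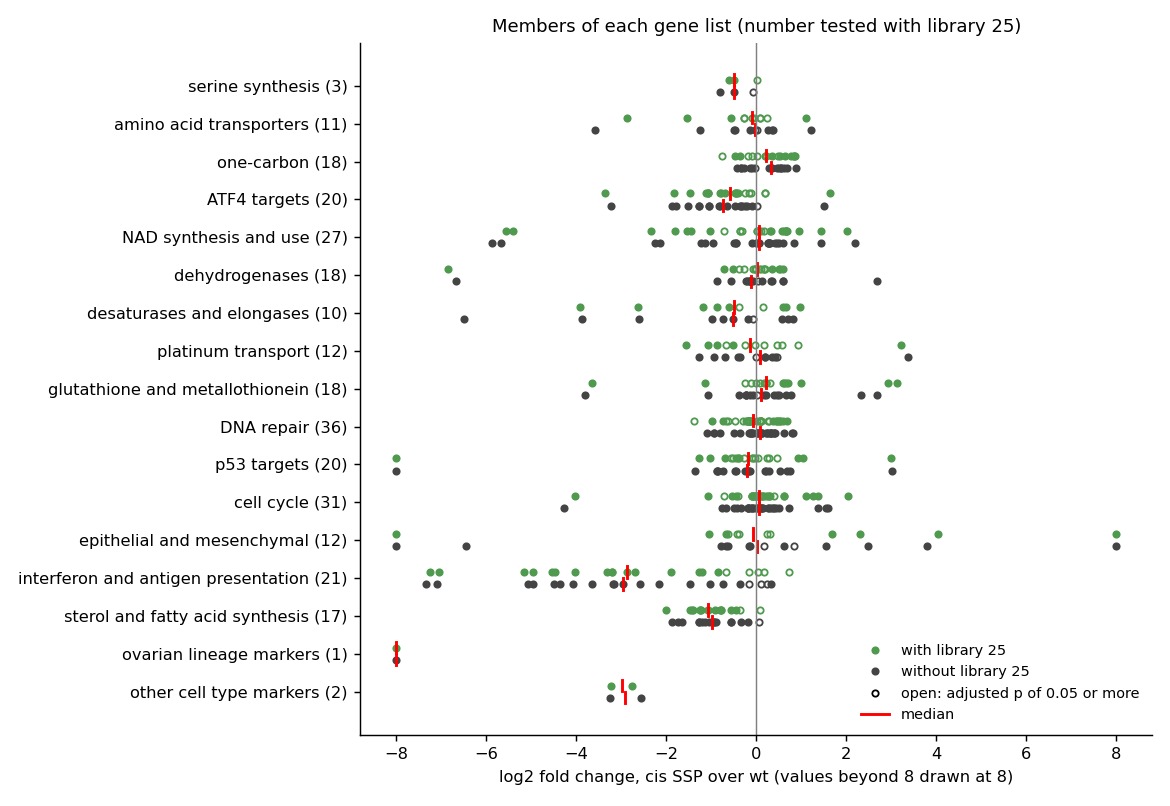
Log2 fold change of cis SSP against wt (horizontal axis) for the tested genes of each list (vertical axis), 1 point per gene, with open points for genes not called and the list median in red. The interferon list has a median of -2.87, the sterol list of -1.06 and the ATF4 list of -0.58.

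The largest changes over all protein-coding genes were switches between a clear level and none. DLX5, a homeobox gene of skeletal and placental development, was at 238, 245 and 250 CPM in wt, 0, 0.0543 and 0.112 CPM in cis and 0 in all cis SSP libraries, at least 3996-fold lower. RGS1, a regulator of G protein signalling, was at 163, 151 and 162 CPM in wt and at 0 in every cis and cis SSP library (at least 2598-fold lower than wt in cis SSP). DLX6, CARD16, EYA4, FIGN and UCP2 were likewise at 0 in cis SSP cells. In all, 103 genes with a mean of at least 50 counts in wt had 0 counts in the 3 cis SSP libraries, 77 of them protein-coding, and 59 of the 103 also had 0 counts in all cis libraries. In the other direction, 36 genes had 0 counts in all wt libraries and a mean of at least 50 in cis SSP cells, 29 of them protein-coding. BARX2, a homeobox gene, was at 0 in wt, at 0.792, 1.249 and 1.12 CPM in cis and at 432, 384 and 373 CPM in cis SSP cells, at least 7212-fold above wt. TMEFF2, a transmembrane protein with follistatin-like domains, was at 0.223, 0.111 and 0 CPM in wt, 17.9, 21.3 and 17.3 CPM in cis and 952, 862 and 866 CPM in cis SSP cells. INHBA, which encodes an activin subunit, was at 0, 0.0556 and 0 CPM in wt, 188, 188 and 200.5 CPM in cis and 94.5, 172 and 166 CPM in cis SSP cells. BARX2 and TMEFF2 rose further in cis SSP than in cis cells, by 8.55 and 5.59 on the log2 scale (adjusted p = 1.2e-05 and 1.3e-05, edgeR, log2 fold change 8.48 and 5.54 without library 25). INHBA was not called between them with library 25 (-0.40, adjusted p = 0.234) and was called without it (-0.17, adjusted p = 0.000133).

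The genes that returned from the largest losses and gains included PSD3 and COL12A1. PSD3, an exchange factor for ARF6, was at 87.7, 89.4 and 89.8 CPM in wt, 0.396, 0.489 and 0.729 CPM in cis and 38.3, 126 and 122 CPM in cis SSP cells. Library 25 was below wt and the others above it, so that the log2 fold change was 0.08 (adjusted p = 0.887, edgeR) and 0.46 ± 0.03 without library 25 (SE, adjusted p = 1.58e-21). COL12A1, a fibril-associated collagen, was at 9.57, 8.90 and 7.60 CPM in wt, 1325, 1369 and 1295 CPM in cis and 1.53, 7.07 and 6.01 CPM in cis SSP cells. Its gain in cis cells was gone in cis SSP cells (-0.84, adjusted p = 0.191, and -0.44 without library 25, adjusted p = 0.00107). ADAMTS6, a secreted metalloprotease, was at 18.9, 19 and 19.4 CPM in wt, 0.528, 0.326 and 0.505 CPM in cis and 11.1, 26.5 and 22.8 CPM in cis SSP cells.

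Some genes differed in cis SSP cells alone, defined as called at least 4-fold away from both wt and cis cells on the same side, with wt and cis within 0.5 on the log2 scale of each other. They numbered 14 higher and 33 lower of 13262 genes, and 13 and 34 without library 25, of which 11 and 29 were found both ways. PRKG1, a cGMP-dependent kinase, was at 54.2, 52.4 and 51.7 CPM in wt, 45.7, 46.5 and 45.0 CPM in cis and 0, 0 and 0.0551 CPM in cis SSP cells, where 1 read was counted in all, and it overlaps CSTF2T on the other strand. TLR1, a receptor of bacterial lipopeptides, was at 0.501, 0.779 and 0.686 CPM in wt, 1.06, 0.760 and 0.617 CPM in cis and 10.8, 17.6 and 16.7 CPM in cis SSP cells, and overlaps TLR6 on the same strand. NMNAT2, described above, was also among them.

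Gene position was then used, since many genes of a chromosome arm can move together. Of 279 windows of 10 Mb with at least 10 genes (GRCh37), 24 had a median log2 fold change of at least 0.5 in size between cis SSP and wt cells, 22 of them lower and 2 higher, and 19 windows did without library 25. Between cis and wt cells, which share the wt libraries, 25 windows did. The lowest median was -4.17 over 14 genes, at 20000001 to 30000000 on chromosome 11 (-3.98 without library 25, -4.30 in cis cells). Next was -2.41 over 11 genes, at 90000001 to 100000000 on chromosome 4 (-2.48 without library 25, -2.24 in cis cells). Chromosome 13 stood lower along its length, with a median of -1.03 over 175 protein-coding genes (-0.995 without library 25) beside -0.904 in cis cells and 0.03 over all 10750 genes, and 8 of its 8 windows passed the limit. On chromosome 1 the windows from 80 to 110 Mb had medians of -1.20, -1.19 and -0.96 in cis SSP and of -0.93, -0.94 and -1.13 in cis cells. The next window, from 110 to 120 Mb, was at -0.05 (-0.00 without library 25) in cis SSP and at -0.93 in cis cells. Chromosome 8 was at -0.01 over 378 genes in cis SSP and at 0.43 in cis cells. Counts of RNA do not measure DNA copies, and copy number was not tested.

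PHGDH lies in a stretch of chromosome 1 whose median level in cis SSP cells was near that of wt cells. Between 110009168 and 120643366 on GRCh37, 56 protein-coding genes had a median log2 fold change against wt of -0.94 in cis cells, where 52 were lower and 51 called lower. In cis SSP cells the median was -0.11 (-0.00 without library 25), and 53 of the 56 genes (54 without library 25) were higher in cis SSP than in cis cells. With library 25, 10 of them were called higher and 13 lower than in wt, and 23 and 24 without it, so single genes of the stretch differed from wt in both directions. The stretch was chosen after the windows had been seen, so its values are a description. The plot of medians along the chromosomes shows the window that holds most genes of this stretch, which ends just before PHGDH, beside chromosome 13.

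**Figure D5:**
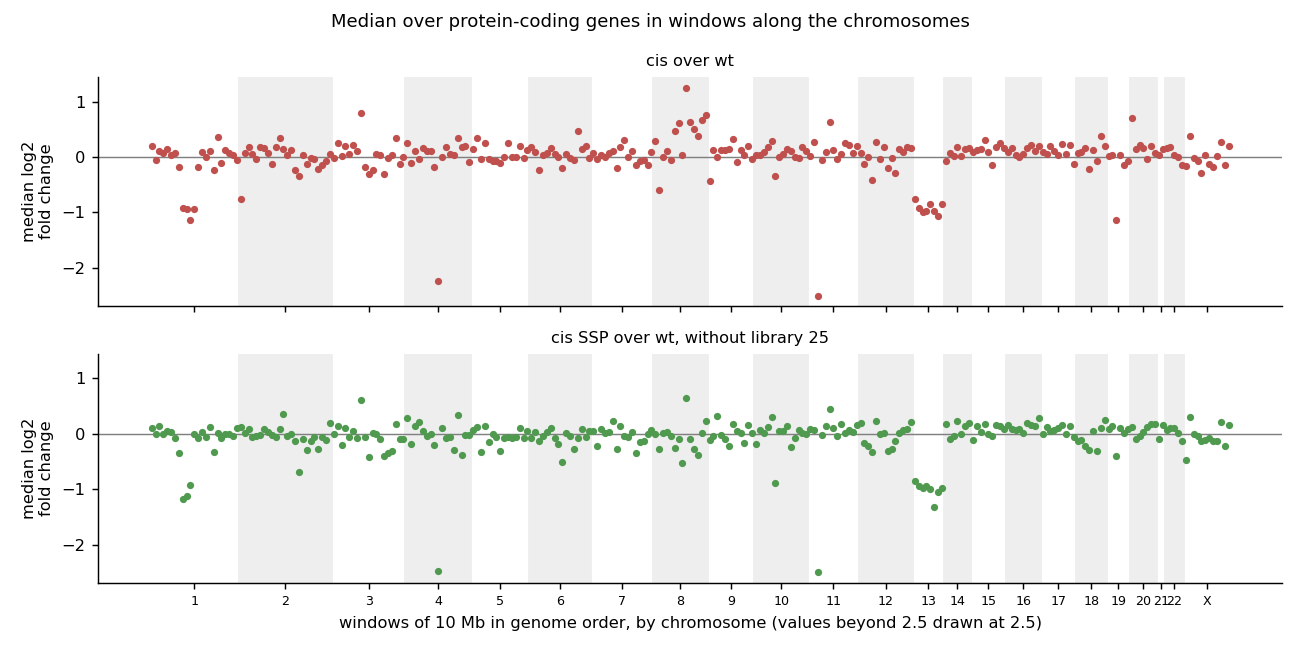
Median log2 fold change of protein-coding genes per window of 10 Mb (vertical axis, values beyond 2.5 in size drawn at 2.5) along the chromosomes (horizontal axis, in order), for cis against wt and for cis SSP against wt without library 25. Chromosome 13 is low in both, with medians of -0.904 and -0.995. The window from 110000001 to 120000000 on chromosome 1, which ends just before PHGDH, is low in cis and near 0 in cis SSP cells.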

How the data were processed

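Libraries were grouped by the sample labels. The authors deposited raw counts per gene: alignment was by STAR (GRCh37.p13), format conversion by SAMtools and exon counting by HTSeq on the GENCODE v19 annotation. The strand setting and the treatment of reads with several alignments are not given in the sources used here, so overlapping genes and near-identical copies are less certain. The 3 rows that name no gene made up 4.95% to 8.18% of each library and were left out. Symbols, positions and lengths came from GENCODE v44 on GRCh37, for 55538 of 57820 genes.

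The counts of each pair of groups were fitted in edgeR 4.0.16 (R 4.3.3) with TMM, filterByExpr, glmQLFit (robust) and glmQLFTest, and a gene was called at an adjusted p under 0.05 (Benjamini-Hochberg over all genes tested). The SE is the absolute log2 fold change divided by the square root of F. CPM used TMM library sizes, and positions used log2 CPM with a prior count of 1. Before averaging, libraries of a group were compared pair by pair: averaged over genes, chi-square between counts was 1.70 to 7.40, and 103 and 118 for library 25 against libraries 27 and 26, so each counted as 1 library. Library totals set the sampling noise, and intervals and floors cover counting error only. A gene with 0 counts in a group was set to a floor of 3 counts over that group for a fold bound.

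The members and the gene lists were chosen with earlier results of these data known. Genes were named by a rule: the serine enzymes and amino acid transporters, at most 3 called genes in each direction of each other list, at most 8 in each direction over all protein-coding genes, at most 6 returned and 6 not returned from each of the lost and gained genes, at most 5 in each direction of the genes called in cis SSP alone, and ATF4 and PARP1. Some genes that the rule names are not reported here. Genes of the other lists and of all protein-coding genes had to be called alike without library 25 and to have a mean of at least 50 counts. The returned and not returned genes had to have the same class of position without library 25 and the same mean. No such condition was set for the serine enzymes, the transporters, the genes called in cis SSP alone, ATF4 and PARP1. Other genes were named after their values were seen: VIM and the markers near 0, SHMT2, MTHFD2, SLC19A1, NAMPT, CHAC1 and CEBPG, and, as the text states, members of the interferon, sterol and ATF4 lists.

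Alternatives were DESeq2 1.42.0 (the study's tool), its size factors, total counts, other filters on low counts, a fold limit, fits over 9 and 36 libraries, limma 3.58.1 voom with library quality weights, a length trend removed, protein-coding genes alone, other start sets and each library left out in turn. The values of other media (with and without library 32), of the genes named after their values were seen, of windows without library 25 and of the stretch of chromosome 1, and left-out libraries for the genes called in cis SSP alone, were added after seeing the data. Scripts were tested on simulated data. Promoter sequences are from RefSeq (GRCh38.p14). CARS was matched as CARS1, and ACACA and PECAM1 were not matched to a row with a symbol. Tables and plots used Python 3.11.15, pandas 2.3.3, scipy 1.17.1 and matplotlib 3.10.9.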

Additional observations from a re-analysis of the deposited data

How the results depend on the processing

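Of 14569 genes tested, 6179 were called between cis SSP and wt cells. The count was 9851 in one fit over the 36 libraries, 10718 by voom with library quality weights, 3434 when a 2-fold change was required besides, and 4413 to 11089 with 1 library left out, the highest without library 25. The remaining alternatives stayed within 1.5 times. For PHGDH the log2 fold change was -0.43 with the length trend removed (adjusted p = 0.176) and -0.80 to -0.52 with 1 library left out. Genes called over all lists numbered 140, 234 by voom and 100 to 244 with 1 library left out, the highest without library 25. With start sets of at least 4-fold (719 lost and 477 gained genes), 43 lost and 42 gained genes stood at 0.75 or more, and 536 and 314 under 0.25. With 1 library left out these counts ran from 188 to 208 and from 127 to 165, and from 833 to 893 and from 574 to 610. Left-out libraries gave 11050 to 11380 genes called between cis and wt, 1995 to 9262 between cis SSP and cis (3990 with all), and 46 to 56 for cis SSP alone (47 with all). Windows past the limit numbered 19 without library 25. The sign of 11 genes of the text turned, none of them called with all libraries: PSPH (-0.00205 with at least 10 counts in every library, -0.12 with the length trend removed, -0.0795 by voom), SHMT2 (-0.000776 by DESeq2, -0.000683 with its size factors, -0.00296 with at least 10 counts in every library, -0.0761 with the length trend removed, -0.14 by voom), OAS3 (0.16 with the length trend removed, 0.0860 by voom), ISG15 (-0.0396 and -0.34 likewise), MTHFD2 (0.15 with the length trend removed), SFXN1 (0.0195 with the length trend removed, 0.00304 over 36 libraries) and, with 1 library left out, PSPH (-0.0817 to 0.0678), SLC38A1 (-0.0720 to 0.351), SLC38A2 (-0.0339 to 0.259), SLC7A11 (-0.454 to 0.00521), PSD3 (-0.16 to 0.456), ADAMTS6 (-0.18 to 0.336), SHMT2 (-0.14 to 0.100), OAS3 (-0.38 to 0.0971) and ISG15 (-0.36 to 0.39). Of 140 genes so followed, leaving out a wt library ended the call of 13 to 15. The cause was not tested. No paired analysis was possible because the library numbers of the labels run through the series and no group shares a replicate number with another.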
